A study of Homo sapiens with 3 samples.

Results

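The genes described here are 36 genes of glycolysis and of the response to low oxygen, out of 18674 genes with usable values in the table. They were taken by symbol from a fixed list: 17 glycolytic enzymes, 2 glucose transporters, 14 targets of the hypoxia-inducible factors (HIF) and 3 HIF subunits. The list was not chosen from measured values, and all 36 symbols were found, in 83 RefSeq rows. RNA sequencing was done on A2780, a human cell line from an undifferentiated ovarian tumour, in 3 libraries. One library came from cells stably carrying the empty retroviral vector pBABE. The other 2 came from cells with the vector expressing miR-181a, p181a #1 and p181a #2, called pool 1 and pool 2 below. The labels describe these as polyclonal pools in the extraction notes and as clones elsewhere, and nothing says that they were separate infections. With 1 vector library, a p-value measures only the spread between the 2 pools, which may be technical.

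As background, glycolysis splits glucose into pyruvate in a chain of cytosolic enzymes, most of which exist as several isoenzymes from separate genes. Glucose enters through transporters such as GLUT1 and GLUT3, and lactate dehydrogenase turns pyruvate into lactate. HIF is a dimer of an oxygen-regulated alpha subunit and the stable subunit ARNT. Prolyl hydroxylases of the EGLN family mark the alpha subunit for destruction when oxygen is present, and when oxygen is low HIF binds short hypoxia response elements and raises transcription of many of these genes. HIF1A is controlled mostly at the protein level, so its messenger RNA does not report HIF activity.

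Values are read coverage per transcript, the median over windows along it, so that levels of different genes can be compared per length. No read counts are given, so depth is unknown. In the vector library 12.8% of rows were at 0, against 32.3% in pool 1 and 32.2% in pool 2. Of 8822 rows at 0 in both pools, 62.9% were above 0 in the vector library, and this excess bears on each member reported as lower. The vector library is the only control and could not be left out. Of the 10 epithelial and ovarian carcinoma markers, 8 were at 0 in both pools, among them EPCAM and PAX8. In the vector library 3 of the 10 were at 0 too, and 7 stood above both pools. Only 5 passed the filter on low values used below, EPCAM among them and PAX8 not. Their summed coverage was 234 in the vector library and 15.8 and 15.4 in the pools. Endothelial markers summed to 222 in the vector library and to 0 and 0.0370 in the pools, and immune markers to 72.7, 2.76 and 2.44. Fibroblast markers, led by COL3A1 and DCN, summed to 573, 1812 and 1467. Of the 6 that were tested, 5 were higher in both pools, while COL1A1 was lower at 7.41, 0 and 0.706. FAP was at 0 in both pools. The part of other cell types in the results below was not tested.

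The mature microRNA that the pools express is shown first, with its seed (bases 2 to 8) in capitals, because the title of the series concerns its target genes. The sequence is from RefSeq, where it is encoded at chr1:198859108-198859130 (minus strand) and chr9:124692480-124692502 (plus strand) of GRCh38.p14.
miR-181a-5p: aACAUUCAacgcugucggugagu
A messenger RNA pairs with this seed through the letters TGAATGT. An A after them makes the site longer by 1 base but adds no pairing, since base 1 of the microRNA is itself an A. In 1 annotated transcript per gene (GENCODE on GRCh37), 7 of the 36 members had TGAATGT in the 3 prime UTR, a share of 19.4%, beside 21.0% of the tested genes that could be matched. These 7 were SLC2A1, SLC2A3, ADM, EGLN1, HK2, P4HA2 and PDK1. PDK1, whose annotated 3 prime UTR is 12700 bases long, held 5 matches and SLC2A3 held 2, while the other 5 held 1 each. Only 3 matches were followed by the A, 1 in PDK1 and both in SLC2A3. The sites of SLC2A3 and ADM are shown because these genes were lower in both pools, and that of HK2 because it is the only enzyme with TGAATGT. Another kind of seed match, GAATGTA, which pairs with bases 2 to 7 and ends in A, was in the enzymes GPI, PFKM and PGAM1, 1 in each. It is not counted as a match here. Capitals mark TGAATGT.
SLC2A3 first site, chr12:8072536-8072558, minus strand: ccacacttgagaggaTGAATGTa
SLC2A3 second site, chr12:8071831-8071853, minus strand: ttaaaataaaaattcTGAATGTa
ADM site, chr11:10328749-10328771, plus strand: ccctattttaagacgTGAATGTc
HK2 site, chr2:75120239-75120261, plus strand: ctggaaaataaatttTGAATGTt
The median difference from the vector library was 0.26 log2 units over the 7 members with a match and 0.45 over the 26 tested members without one. Of the 7, 5 had a difference above 0, as did 22 of the 26. A match is a description of letters and not evidence of binding.

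Most members stood somewhat higher in the miR-181a pools, and the few that fell were HIF targets and ARNT in the rows used. Rows were chosen by the highest mean over the 3 libraries, which favours a row that is high in the vector library. With the row chosen by the pools alone, MXI1 was at -0.05 and ARNT at 0.04. NDRG1 passed the filter through its vector value alone. Differences are of log2(coverage + 1), a scale on which low genes show less than their true ratio. Of the 36 members, 33 passed the filter on low values. CA9, a carbonic anhydrase, the oxygen sensor EGLN3 and EPAS1, the alpha subunit HIF-2 alpha, were listed at 0 in all 3 libraries. Of the 33, 26 were higher in both pools (44.6% of all 12552 tested genes were), 6 were lower in both (41.8% of all), and VEGFA was higher in pool 1 and lower in pool 2. By limma with Benjamini-Hochberg adjustment at 0.05, none rose (1.00% of all tested genes did) and 4 fell: ADM, NDRG1, MXI1 and ARNT (21.7% of all did). The counts depended on the scaling and the row: 27 members rose with library medians set equal and 15 with quantile normalization, beside 6355 and 5641 of all genes, and none fell by limma with the mean of a gene's rows, where 4 were lower at an unadjusted p under 0.05. At an unadjusted p under 0.05, 4 members were higher, PFKP, P4HA1, ANKRD37 and HIF1A, beside 5.39% of all tested genes, and 5 were lower, SLC2A3 and the 4 that fell, beside 27.8%. In bulk RNA, fewer cells expressing a gene and less of its RNA per cell cannot be told apart.

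**Figure D1:**
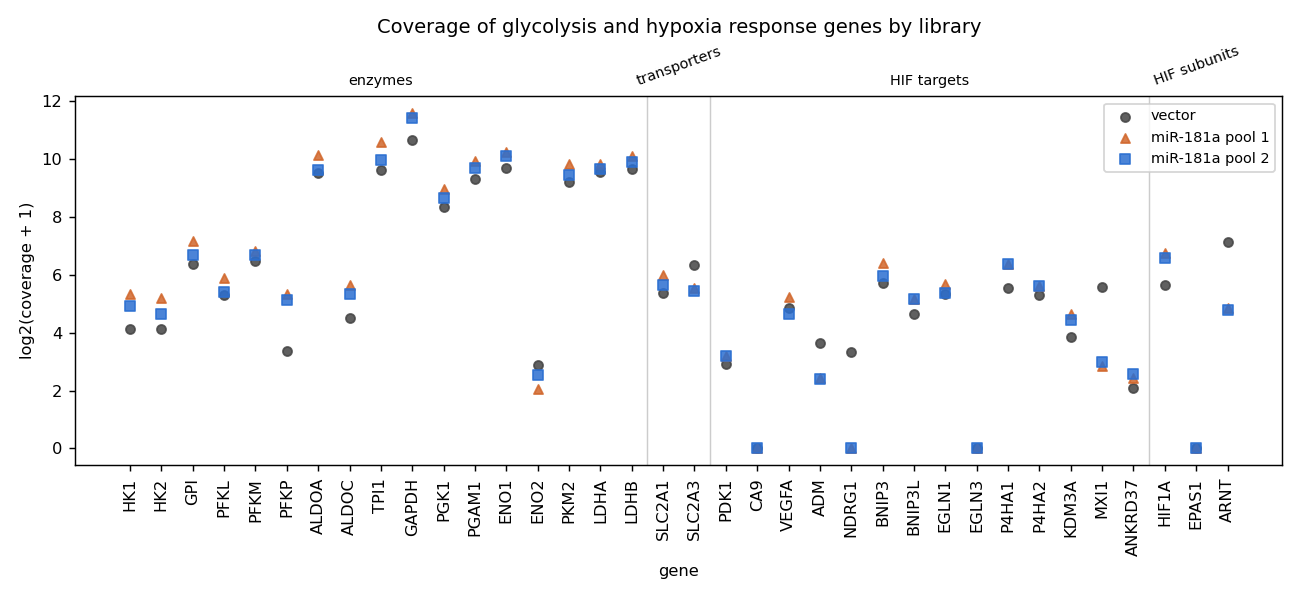
Coverage of the 36 members on a log2(coverage + 1) scale, 1 point per library and gene, grouped by role; each point is a single library with no error bar. The enzymes from ALDOA to LDHB, except ALDOC and ENO2, lie far above the other members, and CA9, EGLN3 and EPAS1 are at 0 in all 3 libraries.

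The shift common to abundant genes sets the scale for these differences. Among the 2124 tested genes with a pool mean above 50, the median difference from the vector library was 0.64 in pool 1 and 0.30 in pool 2, and 0.47 for the mean of both. The 17 enzymes had medians of 0.62, 0.30 and 0.47. In the class with a pool mean of 50 to 500, 77.2% of all tested genes were higher in both pools, as were all 8 members in it. Above 500, 83.3% of 126 genes were, as were all 8 members. At a pool mean of 10 to 50 the median difference was 0.30, and 56.8% of 5099 genes were higher in both pools, as were 8 of 11 members. PFKP, HK1, HK2, ALDOC and SLC2A3 are in this class, so the shift comes from genes of higher coverage than theirs. Most enzymes therefore stood where other genes of like coverage stood, and after this shift was subtracted 10 members were higher and 17 lower in both pools.

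The phosphofructokinase step held the enzyme with the widest difference. PFKP, the platelet-type phosphofructokinase (chr10:3108525-3179910, GRCh37), stood at a coverage of 9.33 in the vector library, against 39.9 in pool 1 and 34.3 in pool 2. Both pools were far above the vector library and close to each other. Its log2 difference was 1.88 (SE 0.26). In the rows used it was the only member at least 1 log2 unit higher in both pools, as 2.53% of tested genes were. Other rows of HIF1A (1.05 and 1.08) and P4HA2 (up to 1.48 and 1.51) also reached this size. PFKP missed the threshold (limma adjusted p = 0.058) and passed in 6 of 10 alternatives, with adjusted p from 2.5e-27 to 0.063. The 6 include library medians set equal and quantile normalization, where 6355 and 5641 of all genes rose. In the others of the 6, 91 to 710 genes rose. After the common shift was subtracted PFKP was still 1.41 log2 units higher.

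The other phosphofructokinases differed little. PFKM, the muscle-type gene, had 88.8 in the vector library, against 111 in pool 1 and 103 in pool 2 in the row used, a log2 difference of 0.27 (SE 0.18). PFKL, the liver-type gene, had 38.3, 58.8 and 41.4, with pool 2 close to the vector library. As shares of the summed phosphofructokinase coverage within each library, which no scaling between libraries affects, PFKP made up 6.84% in the vector library and averaged 19.1% ± 0.124 (SD, n = 2) over the pools. PFKM went from 65.1% to a mean of 55.3% ± 3.32 (SD, n = 2). With the PFKM row of the lowest vector value, the PFKP share was 8.98% in the vector library and 19.0% and 19.2% in the pools, so it was higher in both pools with either row.

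Hexokinases commit glucose to the cell by phosphorylating it. HK1 had 16.6 in the vector library, against 39.0 in pool 1 and 29.1 in pool 2, and HK2 had 16.4, 36.1 and 24.1. Both were higher in both pools, with the larger value in pool 1. The log2 differences were 0.98 (SE 0.32) and 0.81 (SE 0.40), short of the threshold (limma adjusted p of 0.20 and 0.30). The pair kept nearly equal shares, HK1 at 50.3% of their sum in the vector library and averaged 53.3% ± 1.95 (SD, n = 2) over the pools. GPI, which makes fructose phosphate, had 82.8, 143 and 102, a difference of 0.54 that is close to the common shift.

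Aldolase splits the sugar into 2 trioses. ALDOC, the brain-type gene, had 21.5 in the vector library, against 49.1 in pool 1 and 39.6 in pool 2, a log2 difference of 1.00 (SE 0.26, limma adjusted p = 0.16). It stood above the common shift in both pools. ALDOA, the major form, had 732, 1123 and 792, with pool 2 near the vector library. ALDOC made up 2.85% of aldolase coverage in the vector library and averaged 4.47% ± 0.402 (SD, n = 2) over the pools. TPI1, which interconverts the trioses, had 791, 1525 and 991, the widest gap between the pools among the enzymes (pool 2 was 0.62 log2 units below pool 1).

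In the payoff phase, PGK1, PGAM1, ENO1 and PKM2 had differences of 0.45 to 0.49, near the common shift, and GAPDH stood above it. GAPDH, the dehydrogenase that opens this phase, had 1631 in the vector library, against 3081 in pool 1 and 2735 in pool 2, a log2 difference of 0.83 (SE 0.49, limma adjusted p = 0.35). Its share of the summed coverage of the 17 enzymes was 22.1% in the vector library, against 26.0% in pool 1 and 28.3% in pool 2. PGK1 and PGAM1, a kinase and a mutase of the phosphoglycerates, had differences of 0.45 and 0.49, and ENO1, the ubiquitous enolase, 0.47. PGAM1 has a nearly identical copy, PGAM4, listed at 240, 383 and 291, so reads may be split between them. GAPDH and several other enzymes have processed pseudogenes too, and how such reads were assigned is not given in the sources used here.

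Pyruvate kinase and lactate dehydrogenase showed no large difference. PKM2, listed under the older symbol of PKM, had 584 in the vector library, against 908 in pool 1 and 699 in pool 2, a log2 difference of 0.45 (SE 0.34). Its 3 rows had the same pool values and vector values of 581 to 584, so the table does not separate the M1 and M2 splice forms. LDHA, the muscle-type subunit, had 753, 909 and 805, the smallest difference of any enzyme at 0.18 (SE 0.29), and LDHB, the heart-type subunit, had 815, 1115 and 955. LDHA made up 48.0% of their sum in the vector library and averaged 45.3% ± 0.56 (SD, n = 2) over the pools. ENO2, the neuronal enolase, was the only enzyme lower in both pools, at 6.42, 3.14 and 4.74, short of the threshold (limma adjusted p = 0.29). Its level is low enough for the vector excess to bear on it.

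GAPDH had the highest coverage of the enzymes in every library. ENO1, LDHB, TPI1, LDHA and ALDOA came next in the vector library at 732 to 836, and their order differed in pool 1, where TPI1 was second. Pool 2 was below pool 1 in 16 of the 17 enzymes, as it was in 77.2% of all tested genes. The summed enzyme coverage was 7383 with the vector, against 11840 in pool 1 and 9664 in pool 2.

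**Figure D2:**
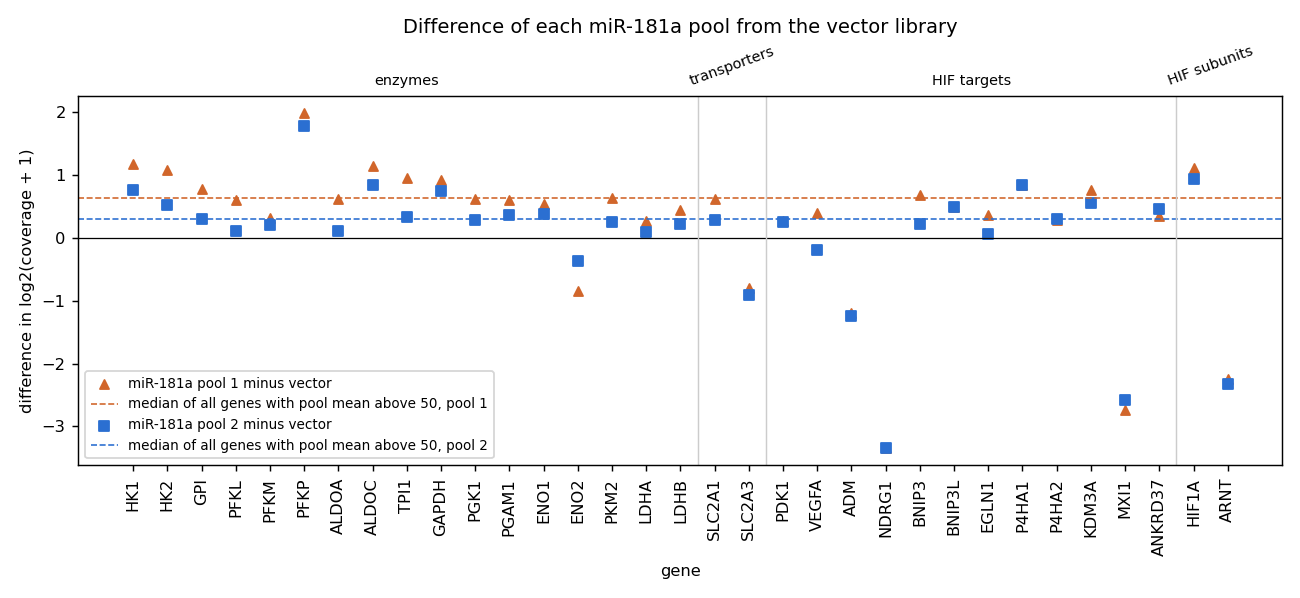
Difference in log2(coverage + 1) between each pool and the vector library for the 33 tested members; dashed lines give the median of all tested genes with a pool mean above 50 (0.64 in pool 1 and 0.30 in pool 2). PFKP stands highest, and SLC2A3, ENO2, ADM, NDRG1, MXI1 and ARNT lie below 0 in both pools.

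The 2 glucose transporters went opposite ways. SLC2A1, which encodes GLUT1, had 40.0 in the vector library, against 62.2 in pool 1 and 49.2 in pool 2, a log2 difference of 0.46 (SE 0.26), near the common shift. SLC2A3, which encodes the high-affinity transporter GLUT3 (chr12:8071826-8171603, GRCh37), had 79.9 in the vector library, against 45.7 in pool 1 and 42.2 in pool 2. Both pools were well below the vector library and close to each other. Its log2 difference was -0.85 (SE 0.19), which missed the threshold (limma adjusted p = 0.12) and passed in 3 of 10 alternatives, with adjusted p from 2e-11 to 0.18. Those 3 were library medians set equal, quantile normalization and the shift, where 3701, 3338 and 5784 of all genes fell. With the common shift subtracted the SLC2A3 difference was -1.32. GLUT3 coverage was 2.00 times GLUT1 coverage in the vector library, and 0.734 and 0.859 times in the pools, so the order of the pair differed between the vector library and both pools.

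SLC2A3 carries the 2 sites printed above that pair with the seed and are followed by an A, the first starting at base 1466 and the second at base 2171 of a 3 prime UTR of 2183 bases. SLC2A1 has 1 match without the A. SLC2A14, a close copy of SLC2A3 on the same chromosome, was listed at 16.2, 6.42 and 6.12, so that both rows of this pair of genes were lower in the pools and reads may be shared between them. SLC2A3 has 1 row in the table, so it could not be compared between transcripts.

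**Figure D3:**
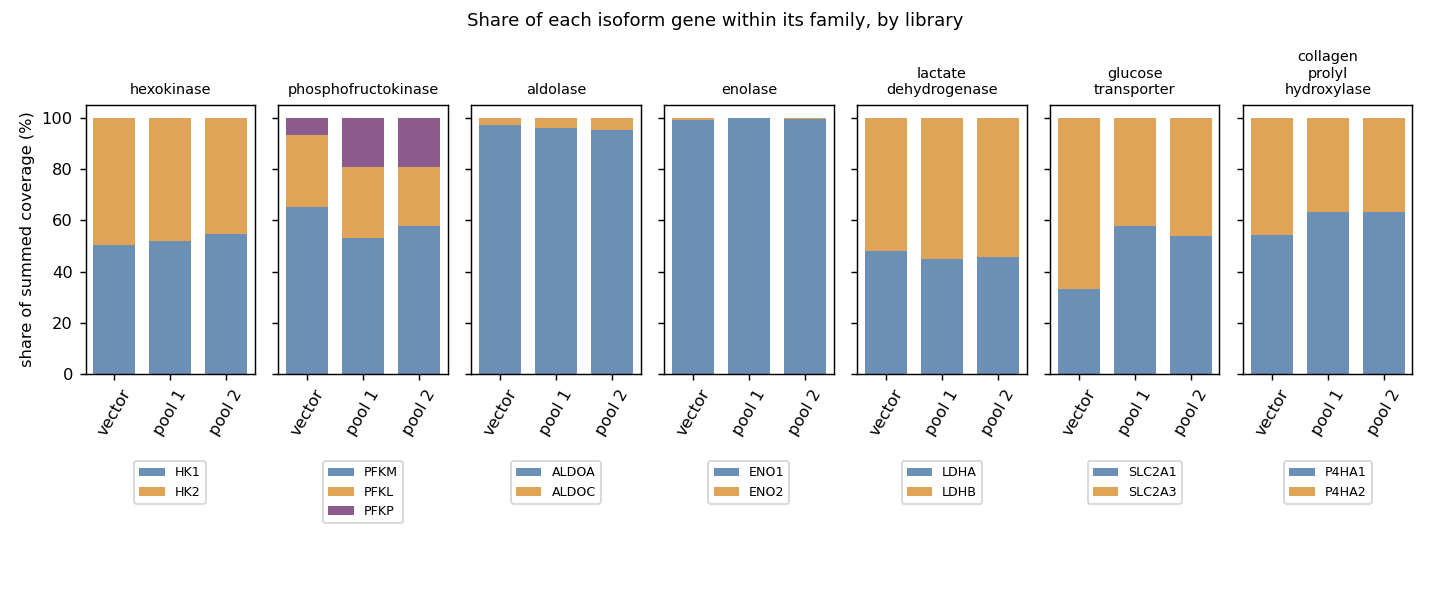
Share (%) of each gene in the summed coverage of its family, within each library; bars start at 0 and each is 1 library. PFKP widens from 6.84% to 19.0% and 19.2% of phosphofructokinase coverage, and SLC2A3 narrows from 66.6% to 42.3% and 46.2% of the 2 transporters.

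Among the HIF subunits, HIF1A stood higher, and ARNT fell in the row used, was lower in a second row and showed no gap in another. HIF1A, the HIF-1 alpha subunit (chr14:62162231-62214977, GRCh37), had 49.0 in the vector library, against 107 in pool 1 and 95.1 in pool 2. Its log2 difference was 1.02 (SE 0.19, limma adjusted p = 0.097), and it passed in 4 of 10 alternatives, with adjusted p from 2.4e-14 to 0.11. The 4 include library medians set equal and quantile normalization, where 6355 and 5641 of all genes rose. In the others of the 4, 402 and 710 genes rose. The second row of HIF1A, a splice variant, had 43.5, 90.9 and 93.2, with both pools again above the vector library. With the common shift subtracted the difference was 0.55.

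ARNT (chr1:150782189-150849184, GRCh37), the partner of both alpha subunits, had 138 in the vector library, against 28.2 in pool 1 and 26.8 in pool 2 in the row used. This row fell by 2.28 on the log2 scale (SE 0.18, limma adjusted p = 0.023). The row NM_178427 had 27.4, 29.2 and 27.2, with no gap between the vector library and the pools, and the row NM_178426 had 31.5, 14.3 and 16.9. With the row chosen by the pools alone the difference was 0.04 (limma adjusted p = 0.91). Over all 10 alternatives the ARNT limma adjusted p ran from 7.4e-45, in the row used, to this 0.91. With the mean of its rows ARNT was at -1.43 (limma adjusted p = 0.062), so that its direction was shared by 2 of its 3 rows and its call depended on the row.

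HIF targets with a moderate level were mostly higher in both pools, 6 of the 7 with a pool mean above 10. Of all tested genes, 56.8% were higher in both at a pool mean of 10 to 50, and 77.2% at 50 to 500. P4HA1, the catalytic subunit of a collagen prolyl hydroxylase, had 45.5 in the vector library, against 82.1 in pool 1 and 82.0 in pool 2. The pools were nearly equal, and the log2 difference was 0.84 (SE 0.17, limma adjusted p = 0.11). Its 4 rows had vector values of 43.9 to 45.5, all below the pools. P4HA2, a second catalytic subunit, had 38.6, 47.5 and 47.9 in the row used. Its 5 rows shared pool values within 1.01 times but ranged from 16.2 to 38.6 in the vector library, so that the difference ran from 0.29 to 1.51 depending on the row and pool.

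KDM3A, a histone demethylase, had 13.6 in the vector library, against 23.8 in pool 1 and 20.6 in pool 2, a log2 difference of 0.66 (SE 0.27). BNIP3, a mitophagy receptor, had 51.9, 83.6 and 60.6, and its relative BNIP3L had 24.2, 34.6 and 34.7. All 3 genes stood higher in each pool but missed the threshold (limma adjusted p of 0.25, 0.41 and 0.25). EGLN1, the main oxygen sensor, had 39.0, 50.5 and 40.7, with pool 2 close to the vector library. PDK1, a kinase that restrains pyruvate dehydrogenase, had 6.63, 8.22 and 8.08. ANKRD37, a small ankyrin repeat protein, had 3.27, 4.46 and 4.90, a difference of 0.41 (SE 0.09) at a low level.

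VEGFA, the vascular growth factor, had 27.7 in the vector library, against 37.0 in pool 1 and 24.2 in pool 2 in the row used, with the vector library between the pools. Of its 16 rows, this was the only one not higher in both pools. The row with the highest pool mean had 16.4, 39.4 and 29.3, a log2 difference of 1.01 (SE 0.32, limma adjusted p = 0.20). Over all 10 alternatives the VEGFA limma adjusted p ran from 0.012 to 0.92, both in the row used. Vector values ran from 13.1 to 27.7 over the 16 rows.

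The 3 HIF targets that fell were all at low levels in the pools, where most genes were lower. Of the 5329 tested genes with a pool mean of at most 10, 72.2% were lower in both pools, and their median difference was -1.84. ADM, the peptide hormone adrenomedullin (chr11:10326620-10328944, GRCh37), had 11.4 in the vector library, against 4.42 in pool 1 and 4.26 in pool 2. The pools were nearly equal and below the vector library, and ADM fell by 1.21 on the log2 scale (SE 0.14, limma adjusted p = 0.043). It passed in 6 of 9 alternatives, with limma adjusted p from 1.2e-08 to 0.12. In those 6 settings, 2410 to 5784 of all genes fell. MXI1, an antagonist of MYC, fell by 2.66 (SE 0.29, limma adjusted p = 0.039) in the row used, which had 46.9, 6.16 and 6.99. Its other rows had 8.87, 8.31 and 8.75, and 3.46, 6.04 and 6.99, the last of these higher in both pools. With the row chosen by the pools alone the MXI1 difference was -0.05 (limma adjusted p = 0.89). Over all 10 alternatives the MXI1 limma adjusted p ran from 7.4e-42, in the row used, to this 0.89. NDRG1, a stress-response protein, was at 9.18 in the vector library and listed at 0 in both pools, so it passed the filter through the vector value alone and its direction was fixed in advance.

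Set side by side, the enzymes had a median log2 difference of 0.47 over 17 tested genes and the HIF targets one of 0.28 over 12, against 0.07 over all tested genes. The enzymes ran from -0.61 to 1.88, and the targets other than NDRG1 from -2.66 to 0.84. Among members with a pool mean above 10, the medians were 0.48 over 16 enzymes and 0.45 over 7 targets. The gap between the groups was thus 0.19 with ADM, NDRG1 and MXI1 included, and it was smaller among genes of higher level. The target median minus the enzyme median was -0.06 in pool 2 alone, -0.26 in pool 1 alone and -0.30 with a pseudocount of 10. With the mean of a gene's rows the HIF target median was 0.45 and the gap was 0.04. These medians describe the lists and carry no test, since there is 1 vector library. Members lower by 1 log2 unit or more in each pool were ADM, NDRG1, MXI1 and ARNT, beside 27.3% of all tested genes.

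Transcript rows of 1 gene differed more in the vector library than in the pools. Of the 36 members, 15 had 2 or more rows, and 3 of these had identical rows. Among the 14 with all 3 libraries above 0 in 2 or more rows, the highest row exceeded the lowest by more than 1.5 times in 5 members in the vector library (ARNT, MXI1, P4HA2, PFKM and VEGFA) and in 1, ARNT, in each pool. Over the 4029 genes that could be compared this way, the shares were 41.4% in the vector library, against 13.0% in pool 1 and 13.1% in pool 2. Enzymes other than PFKM had rows within 1.26 times of each other in every library.

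**Figure D4:**
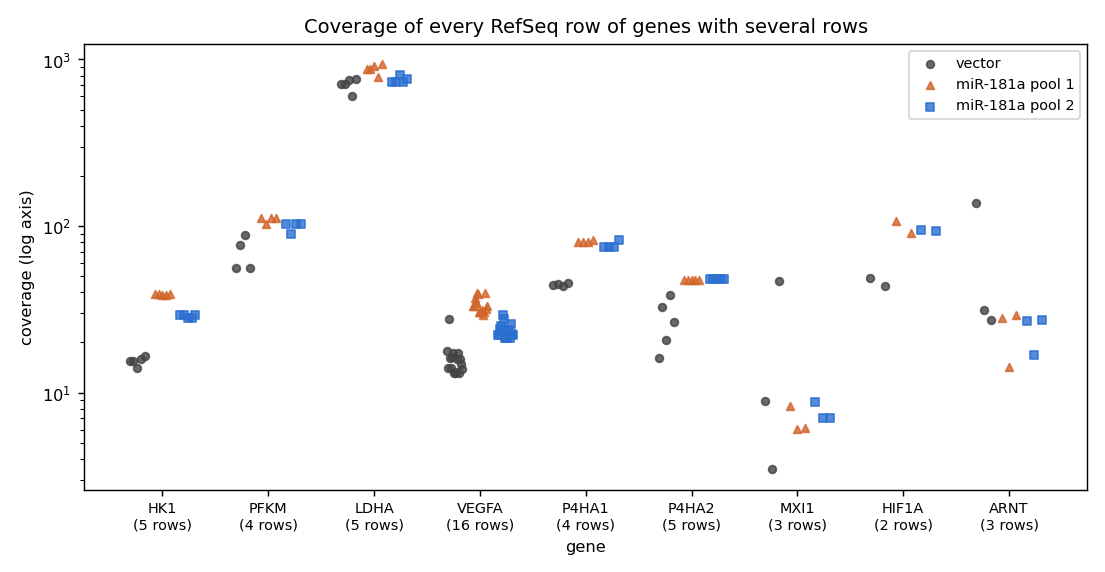
Coverage (log axis) of every RefSeq row of 9 members with several rows, 1 point per row and library; the sideways spread only separates rows. The rows of HK1, LDHA, P4HA1 and HIF1A lie close together in each library, while the vector rows of ARNT run from 27.4 to 138 and those of MXI1 from 3.46 to 46.9.

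The promoters of the members were searched for the core of the hypoxia response element, since HIF binds such elements. The list of targets was taken by symbol and not by a search of these windows, and those of EGLN3 and P4HA2 held none. Whether genes came to be called HIF targets through such elements is not given, so the shares below are a description only. The letters searched were ACGTG and GCGTG on both strands, in RefSeq windows of 300 bases (250 before the start to 50 after it, GRCh38.p14). The letters CACGTG, an E-box bound by other factors, hold ACGTG on both strands and were counted as matches. Windows were found for 32 members and not for VEGFA, SLC2A3, NDRG1 and BNIP3L. Of 57 member windows 37 held a match (64.9%, beside 48.4% of all 35116 windows), and 22 held ACGTG (38.6%, beside 21.4%). By group, a match was in 23 of 37 enzyme windows, of which HK1 and PFKM gave 7 each, and 11 of 15 HIF target windows. ADM, which fell, and P4HA1, which stood higher, both had 1 match. The 250 bases before the start are shown for the enzyme and the HIF target with the largest difference shared by both pools at a pool mean above 10, with matches in capitals. PFKP has 4 windows, of which window 3 is printed because it holds the ACGTG match; window 4 holds 3 of GCGTG and the others none.
PFKP window 3, chr10:3068939-3069188, plus strand: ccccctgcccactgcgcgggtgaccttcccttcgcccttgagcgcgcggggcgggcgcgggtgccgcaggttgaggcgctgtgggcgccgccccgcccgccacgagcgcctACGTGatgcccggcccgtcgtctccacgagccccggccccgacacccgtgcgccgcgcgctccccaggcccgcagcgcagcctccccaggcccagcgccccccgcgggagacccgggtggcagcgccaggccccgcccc
P4HA1, chr10:73096867-73097116, minus strand: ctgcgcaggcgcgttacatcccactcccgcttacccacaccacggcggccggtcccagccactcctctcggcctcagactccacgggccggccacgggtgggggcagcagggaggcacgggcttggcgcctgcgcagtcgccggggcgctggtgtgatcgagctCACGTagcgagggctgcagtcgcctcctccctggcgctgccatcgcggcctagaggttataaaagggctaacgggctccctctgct
These matches are letters in a window, and no binding was measured.

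Other genes of the pathway were read from 6 lists with 61 tested genes. None rose by limma, and 6 fell, beside 1.00% and 21.7% of all tested genes. Among the 6 were FBP2, HIF3A, ARNTL, CA12 and EPO. All 6 had a pool mean of at most 1.55 and vector values of 9.04 to 41.1. Of those named, HIF3A and EPO were listed at 0 in both pools. These passed the filter through the vector value alone, and their direction was fixed in advance. At an unadjusted limma p under 0.05, 3 of the 61 were higher, beside 5.39% of all tested genes. Of the 43 with a pool mean above 10, 26 were higher and 10 lower in both pools. Their median log2 difference was 0.41, near that of the members. Of all tested genes, 56.8% were higher and 24.4% lower in both at a pool mean of 10 to 50. At 50 to 500 these shares were 77.2% and 7.76%.

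Among the regulators of fructose bisphosphate, PFKFB4, a kinase that makes the activator of phosphofructokinase and a HIF target itself, was lower at 31.6, 12.6 and 12.1, short of the threshold (limma adjusted p = 0.11). C12orf5, which encodes TIGAR and opposes that activator, had 9.25, 24.1 and 14.2. In the list of pyruvate entry and lactate export, SLC16A1, the lactate transporter MCT1, had the largest positive difference (1.25) at 56.3, 167 and 109. BRP44L, a subunit of the mitochondrial pyruvate carrier, had the largest negative one (-1.07) at 28.5, 12.7 and 13.3. Both missed the threshold (limma adjusted p of 0.19 and 0.14).

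The 7 pentose phosphate genes had a median of 0.48, from -0.20 for PGLS to 0.63 for PGD, and none passed the test. Among the HIF regulators, HIF1AN, the asparagine hydroxylase that inhibits HIF, had 17.3, 32.1 and 26.3, and TCEB1, a subunit of the VHL ubiquitin ligase, had 171, 125 and 150. Among 19 further HIF targets 9 were higher and 10 lower in both pools, beside 44.6% and 41.8% of all tested genes. The iron importer TFRC had the largest positive difference (0.96) at 42.6, 96.2 and 72.6, and KDM4B, a demethylase, the largest negative one among those above 10 (-0.72) at 16.6, 12.8 and 7.29. Of the tissue-restricted isoenzymes, HK3, PGK2, PKLR and LDHAL6B were at 0 in both pools in every row, and ENO3, the muscle enolase, had 71.9, 90.7 and 79.6.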

How the data were processed

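Poly-A RNA of A2780 cells was sequenced in 3 libraries. The authors aligned reads to hg19 and recorded, per the labels' protocols, the median per transcript of a density profile in windows of 50 bases. Which aligner and which annotation were used is not given in the sources used here. Log and quantile steps appear in the labels, yet the deposited coverage signal is linear and its quantiles differ between libraries, so no common scale was assumed.

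Of 29156 rows, 308 had a blank vector value, none of them a member's, and were left out. Symbols turned into dates (54 rows) were restored by accession. Each gene was read from its row of highest mean over the 3 libraries, which favours a row that is high in the vector library. Values were taken as log2(coverage + 1), with a pseudocount of 1. After the lowest 25% by mean of genes with any value above 0 were removed, 12552 genes were fitted with limma 3.58.1 in R 4.3.3, pools against vector, with a variance trend and 1 residual degree of freedom. The spread of the single vector library is taken to equal that of the pools. P-values were adjusted over all tested genes at 0.05, and the fit was tested on simulated data. A gene is at 0 when most of its windows are empty, so 0 does not mean no reads.

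Seed matches came from canonical GENCODE transcripts on GRCh37, the assembly of hg19 (87.3% of tested genes matched by symbol). Members, lists and tests were chosen with earlier results of these data known. Every member is named. Of other pathway genes, the text names those past the test and, at a pool mean above 10, those at least 1 log2 unit away in both pools and the extremes of each list. Some genes that the rule would name are not reported here. Alternatives covered the filter, pseudocount, scaling, row, variance model and each pool left out.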

Additional observations from a re-analysis of the deposited data

How the results depend on the processing

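No paired analysis was possible because the vector group has 1 library. Leaving out a pool left no test. It gave enzyme medians of 0.30 to 0.62, HIF target medians of 0.24 to 0.36, 26 to 27 members higher and 6 to 7 lower, and VEGFA differences of -0.19 to 0.40. With each pool shifted by its median difference in genes above 50, 4 members rose, 10 were higher and 17 lower in both pools, and the medians were 0.00 for enzymes and -0.19 for HIF targets. By the construction of that shift, differences below it turned sign: ALDOA -0.11, ANKRD37 -0.06, BNIP3 -0.02, EGLN1 -0.26, ENO1 0.00 (just below), LDHA -0.29, LDHB -0.13, P4HA2 -0.17, PDK1 -0.21, PFKL -0.11, PFKM -0.20, PGK1 -0.02, PKM2 -0.02, SLC2A1 -0.01 and VEGFA -0.36. Quantile normalization gave 15 members that rose, a HIF target median of 0.49, a gap to the enzymes of -0.01, and turned ENO2 (1.65), LDHA (-0.11) and LDHB (-0.04). With library medians set equal 27 members rose, and the medians were 0.89 and 0.70. Members that rose numbered 2 with a filter at the median and 1 each with no filter, no variance trend and a pseudocount of 0.1. Members that fell numbered 2 with a filter at the median, where 3 were lower in both pools, and 2 with the row chosen by the pools, where ARNT was at 0.04. With the mean of rows none fell by limma (4 were lower at an unadjusted p under 0.05), the HIF target median was 0.45 and the gap -0.04. That median was 0.37 with a filter at the median and 0.16 with a pseudocount of 10. At least 1 log2 unit higher in both pools was 1 member in the rows used. Over all genes, 126 rose and 2725 fell. The numbers were 402 and 1476 with a filter at the median, 278 and 5626 with no filter, and 710 and 5784 after the shift. With medians set equal 6355 rose, and with quantile normalization 5641. Apart from the shift, the cause of these changes was not tested.

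SLC2A3 stayed below 0 in all 12 alternatives (-1.32 to -0.43), and PFKP (1.28 to 2.63), HIF1A (0.55 to 1.44), HK1 (0.51 to 1.40), ALDOC (0.53 to 1.42) and P4HA1 (0.37 to 1.25) stayed above it. Depth is unknown, so no counting error could be set beside low values such as those of ADM, ENO2 and ANKRD37.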

Other observations

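The 2 monocarboxylate transporters that carry lactate across the cell membrane differed in opposite directions, a pair chosen after its values were seen. SLC16A1 (MCT1) was at 56.3 in the vector library, against 167 in pool 1 and 109 in pool 2, and SLC16A3 (MCT4), a HIF target, was at 75.8, 48.5 and 36.8. The ratio of SLC16A1 to SLC16A3 was 0.743 in the vector library and 3.45 and 2.97 in the pools, a comparison within each library that no scaling affects. Neither gene passed the limma test (adjusted p of 0.19 and 0.21). The ratio of SLC2A3 to SLC2A1, the 2 glucose transporters, went from 2.00 to 0.734 and 0.859. The direction of either ratio depends on which gene is the numerator, so the 2 pairs are not contrasted.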
